A study of Mus musculus with 8 samples.

Results

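The genes described here encode stefins and cystatins, inhibitors of cysteine proteases: the stefin A genes *Stfa1*, *Stfa2*, *Stfa2l1* and *Stfa3*, the stefin B gene *Cstb* (cystatin B) and the cystatin C gene *Cst3*. They are 6 of the 23356 genes of the expression table, picked by name. The names were chosen by their FPKM in the same 4 groups that are compared below, so their differences between groups are given as a description, with no test. RNA-seq was performed on bone marrow-derived dendritic cells (BMDCs) in 8 libraries, 2 for each of 4 groups. The groups were WT BMDCs left untreated, WT BMDCs given ansamitocin-P3, GEF-H1-/- BMDCs left untreated and GEF-H1-/- BMDCs given ansamitocin-P3, a maytansinoid that destabilizes microtubules. GEF-H1 is a guanine nucleotide exchange factor for RhoA that is held on microtubules and is encoded by *Arhgef2*.

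All mice were on a C57BL/6 background in the sample labels (C57BL/6N in the study's methods), and the knockout is named Arhgef2-KO in the sample labels (allele Arhgef2 tm1Hcr in the study's methods). Marrow cells of every group had been grown for 6 days with GM-CSF and IL-4 (each at 10 ng/ml), and the non-adherent and lightly adherent fraction was used, with no sort named. Ansamitocin-P3 was given at 100 nM for 5 h. The study's methods describe sex-matched adult mice of both sexes, but tie no age or sex to a library. Whether the 2 libraries of a group came from separate animals is not given in the sources used here. The deposited values are FPKM, fragment counts scaled by transcript length and sequencing depth. Cuffdiff pooled both libraries of a group, so each gene has 1 value per group. No SD, n or p-value can be given for any value below. The error given is the 95% interval that Cuffdiff attached to each FPKM, and whether such intervals overlap is a description and not a test. The study's methods name a target depth per sample, but how many reads stand behind each value is not given in the sources used here.

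Stefins are small proteins of the cytosol that lack a signal peptide and close the active site of papain-like proteases such as cathepsins B, L, S and H. Cystatin C is secreted and meets the same proteases outside the cell and in endosomes, and in dendritic cells these proteases trim the invariant chain and antigen for presentation on MHC class II. The mouse carries an expanded cluster of stefin A genes, transcripts of which are abundant in neutrophil precursors and other myeloid cells.

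The stefin A genes lie side by side on chromosome 16, where 10 genes of the cluster list span 335 kb (36119946 to 36455392, GRCm38). *Stfa2l1* is at 36156811 to 36161948, *Stfa1* at 36277148 to 36285371, *Stfa2* at 36403946 to 36408363 and *Stfa3* at 36450537 to 36455392. *Cstb* is on chromosome 10 (78425670 to 78427622) and *Cst3* on chromosome 2 (148871732 to 148875468). Because the stefin A genes are lower together in GEF-H1-/- BMDCs, the 100 bases just before their transcription starts are shown, from the RefSeq promoters of GRCm38.p6, each read 5′ to 3′ on the strand of its gene. They are chr16:36277048-36277147 (plus strand) for *Stfa1*, chr16:36408364-36408463 (minus strand) for *Stfa2*, chr16:36156711-36156810 (plus strand) for *Stfa2l1* and chr16:36455393-36455492 (minus strand) for *Stfa3*. Capitals mark the letters TTTAAA. This run resembles a TATA box and was picked after these sequences had been read.
Stfa1: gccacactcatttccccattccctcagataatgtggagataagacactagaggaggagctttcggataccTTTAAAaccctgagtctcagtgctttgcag
Stfa2: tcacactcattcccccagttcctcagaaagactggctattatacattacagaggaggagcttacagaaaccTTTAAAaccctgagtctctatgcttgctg
Stfa2l1: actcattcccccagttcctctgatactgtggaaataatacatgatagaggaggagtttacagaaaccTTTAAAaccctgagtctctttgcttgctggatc
Stfa3: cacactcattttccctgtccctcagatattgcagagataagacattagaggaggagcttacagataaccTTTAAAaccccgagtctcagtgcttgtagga

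The run begins at -30 in *Stfa1*, -29 in *Stfa2*, -33 in *Stfa2l1* and -31 in *Stfa3*, counted from the first transcribed base. In other cluster genes it begins at -29 (Gm5483), -9 (BC100530) and -77 (Gm5416), and it is absent from the windows of 2010005H15Rik, which is also lower in GEF-H1-/- BMDCs, and *Csta*. In aligned pairs the 4 printed windows were from 75.2% (*Stfa1* and *Stfa2l1*) to 82.4% (*Stfa1* and *Stfa3*) identical. Among 32851 RefSeq promoter windows of the same length, 4.39% hold TTTAAA. A search on both strands for TGANTCA, the AP-1 core, found no match in these 4 windows, against 2.73% of all windows, and TTNNGNAA, a loose C/EBP pattern, was found in *Stfa2* and *Stfa2l1*, against 14.9% of all windows. For the other genes, 9 of the 10 cluster genes and *Cst3* had a promoter in the RefSeq table, and *Cstb* was not matched. The *Cst3* window held none of these 3 motifs, and its GC content was 68%, against 42% to 47% in the stefin A genes shown and a median of 55% over all windows. A match of letters is a description and not a binding site.

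The cluster genes also share transcript sequence, which bears on how reads were assigned. Reads were 35 bases long and sequenced in pairs. Of all 35-base stretches in the GENCODE transcripts of *Stfa1*, 38.7% also occur in another gene, most of them in BC100530. The share was 37.4% for *Stfa2l1* and 29.7% for *Stfa2*, which overlap mainly with each other. No 35-base stretch of *Stfa3*, *Cstb* or *Cst3* occurs in another gene. A read can also be placed by its mate, so these shares of single stretches are not shares of ambiguous fragments. The annotation behind the FPKM is not given in the sources used here and may differ from GENCODE. The values of *Stfa1*, *Stfa2* and *Stfa2l1* are uncertain as values of single genes, to an extent that was not measured. Their sum was 710 FPKM in untreated WT, 1282 in treated WT, 267 in untreated and 308 in treated GEF-H1-/- BMDCs, and it leaves out BC100530 and BC117090, with which *Stfa1* mainly shares stretches. How the reads of such stretches were assigned is not given in the sources used here.

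**Figure D1:**
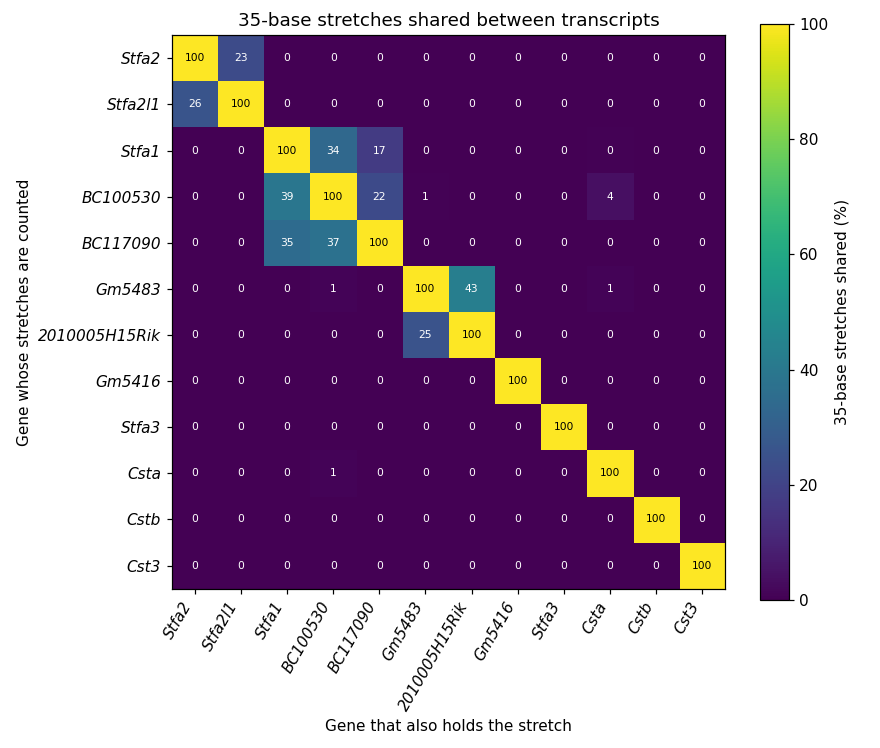
Share of the 35-base stretches of each gene (rows) that also occur in transcripts of another gene (columns), in percent. *Stfa3*, *Cstb* and *Cst3* share none, whereas 26% of the stretches of *Stfa2l1* occur in *Stfa2*.

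*Arhgef2*, the deleted gene, was at 42.3 FPKM (95% interval 34.5 to 50.0) in untreated and 45.9 (36.9 to 54.9) in treated WT BMDCs. It was at 4.59 (3.54 to 5.63) in untreated and 4.16 (3.22 to 5.11) in treated GEF-H1-/- BMDCs. The intervals of the genotypes are apart, in the direction of the labels. Of 11 dendritic cell markers all passed a filter of 1 FPKM. Among them *Cd74*, the invariant chain, was the most abundant at 3676 FPKM in untreated WT and 3073 in untreated GEF-H1-/- BMDCs, whereas *Flt3* (2.10 and 2.63 FPKM) and *Cd209a* (1.81 and 3.30) were low.

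*Stfa2* was at 365 FPKM (197 to 318) in untreated and 740 (410 to 657) in treated WT BMDCs. In GEF-H1-/- BMDCs it was at 111 (60.3 to 106) untreated and 128 (70.4 to 123) treated. Its highest value was thus in treated WT cells, apart from all other groups by its interval, and both GEF-H1-/- values lay below both WT values. *Stfa2l1* was at 268 FPKM (144 to 232) in untreated and 434 (238 to 383) in treated WT BMDCs, and at 129 (68.8 to 120) in untreated and 149 (80.9 to 141) in treated GEF-H1-/- BMDCs. It followed the same order, and its intervals in untreated and treated WT cells were also apart.

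*Stfa1* was at 77.2 FPKM (38.5 to 69.0) in untreated and 108 (55.1 to 97.1) in treated WT BMDCs. It was at 27.2 (13.1 to 24.7) in untreated and 30.5 (14.9 to 28.0) in treated GEF-H1-/- BMDCs. Its intervals overlapped between untreated and treated cells of each genotype and were apart between genotypes. *Stfa3* was at 133 FPKM (68.8 to 120) in untreated and 200 (106 to 172) in treated WT BMDCs, against 11.2 (5.27 to 11.1) in untreated and 17.3 (8.39 to 17.3) in treated GEF-H1-/- BMDCs. *Stfa3*, the stefin A gene with no shared stretch, had the widest gap between genotypes of the 6 genes: its FPKM was 11.9 times higher in untreated WT than in untreated GEF-H1-/- cells and 11.6 times higher after ansamitocin-P3.

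In all 4 groups the FPKM of each of the 4 stefin A genes lay above the upper bound of its own interval, by the smallest margin for *Stfa3* in treated GEF-H1-/- cells. This was so for 112 to 137 of 11397 genes per group (0.983% to 1.20%), and no gene lay below its interval. *Cstb* and *Cst3* lay within theirs. The cause was not tested, and the intervals of the stefin A genes are not centred on the values they belong to.

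*Cstb*, whose product stefin B guards the cytosol against leaked cathepsins, was at 353 FPKM (226 to 363) in untreated and 599 (376 to 603) in treated WT BMDCs. In GEF-H1-/- BMDCs it was at 336 (214 to 344) untreated and 405 (259 to 415) treated. The untreated genotypes overlapped almost entirely, and treated WT cells were higher than untreated WT cells with intervals apart. *Cst3* was the most abundant of the 6 genes in every group, at 5412 FPKM (3517 to 5940) in untreated and 8178 (5124 to 9067) in treated WT BMDCs, and at 3874 (2521 to 4166) in untreated and 4360 (2838 to 4721) in treated GEF-H1-/- BMDCs. It ranked 8 in untreated WT cells among 11397 genes, 7 in treated WT, 9 in untreated and 8 in treated GEF-H1-/- cells. For *Cst3*, of all 4 comparisons the intervals were apart only between treated WT and treated GEF-H1-/- cells. They would overlap there too with groups scaled to equal sums over all genes.

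**Figure D2:**
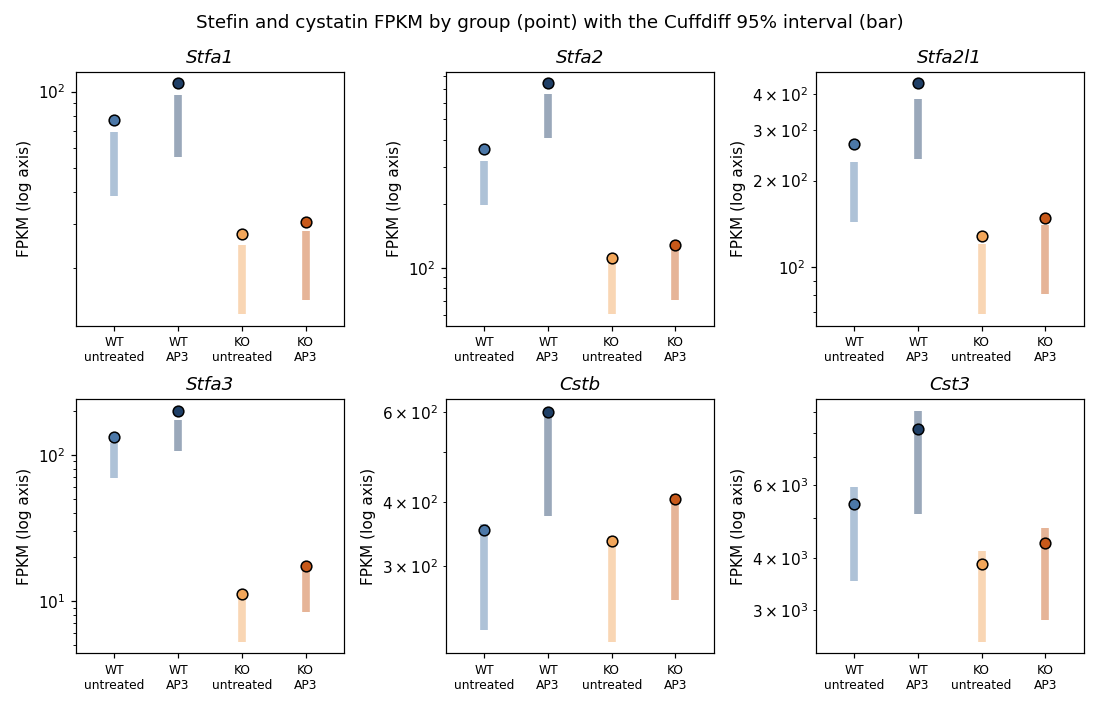
FPKM (points, log axis) and Cuffdiff 95% intervals (bars) of the 6 genes in WT and GEF-H1-/- (KO) BMDCs, untreated or given ansamitocin-P3 (AP3). The stefin A points lie above their bars in every group, and *Stfa3* falls from 133 FPKM in untreated WT to 11.2 in untreated KO cells.

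In order of level, *Cst3* was followed in WT BMDCs by *Stfa2*, *Cstb* and *Stfa2l1*, of which neighbours overlapped, then by *Stfa3* and *Stfa1*. The last pair overlapped in untreated but not in treated WT cells. In GEF-H1-/- BMDCs *Cstb* came second and *Stfa3* last. *Stfa2l1* and *Stfa2* overlapped there in both treatments, and *Stfa1* and *Stfa3* after ansamitocin-P3.

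Changes were taken as the log2 ratio of FPKM + 1, a scale that understates changes of low genes, and a gene was counted as past the threshold over 1 or under -1. All 6 genes passed the low-value filter (1 FPKM or more in any group), as did 11397 genes in all, and the 6 were above it in every group. Between untreated genotypes the 4 stefin A genes were lower in GEF-H1-/- cells, by -1.47 for *Stfa1*, -1.70 for *Stfa2*, -1.05 for *Stfa2l1* and -3.46 for *Stfa3*. *Cst3* was at -0.48 and *Cstb* at -0.07. Thus 4 of 6 genes were past -1, against 0.614% of all genes, and the same number had intervals apart in that direction, against 1.88%. Since the genes were selected on these values, nothing is read from that difference. *Stfa2l1* lies near the threshold, at -0.98 when interval midpoints replace the FPKM.

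After ansamitocin-P3 the genotypes were farther apart for 5 of the 6 genes, at -1.79 for *Stfa1*, -2.52 for *Stfa2*, -1.54 for *Stfa2l1*, -0.56 for *Cstb* and -0.91 for *Cst3*, with *Stfa3* again at -3.46. Here 4 of 6 genes were past -1, against 2.06% of all genes, and 5 of 6 had lower, separate intervals, against 6.73%. With groups scaled to equal sums over all genes, *Cstb* was at -0.30, *Cst3* at -0.65 and *Stfa3* at -3.20. *Stfa1* was then at -1.53, *Stfa2* at -2.26 and *Stfa2l1* at -1.28. Interval bounds were not rescaled. Dividing them by the factors of 1.21 (treated WT) and 1.01 (treated GEF-H1-/-) would make those of *Cst3* overlap between genotypes. Those of the 4 stefin A genes would stay apart. The comparisons of untreated and of treated genotypes share no group with each other, but each shares its groups with the drug comparisons.

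In WT BMDCs ansamitocin-P3 went with higher values of all 6 genes, by 0.48 for *Stfa1*, 1.02 for *Stfa2*, 0.69 for *Stfa2l1*, 0.58 for *Stfa3*, 0.76 for *Cstb* and 0.60 for *Cst3*. Only *Stfa2* was past 1, against 3.66% of all genes, and 3 of 6 (*Stfa2*, *Stfa2l1* and *Cstb*) had separate intervals, against 9.19%. Summed over all genes, FPKM was higher in treated WT cells than in the other groups, and when groups were scaled to equal sums the median of all genes moved to -0.24 in this comparison and *Stfa2* to 0.74, past the threshold no longer. Under that scaling *Stfa1* was at 0.20, *Stfa2l1* at 0.42, *Stfa3* at 0.31, *Cstb* at 0.48 and *Cst3* at 0.32. The separate intervals were counted without it. Dividing the bounds of treated WT cells by their factor of 1.21 would make those of *Stfa2l1* and *Cstb* overlap with untreated WT cells. Only those of *Stfa2* would stay apart.

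In GEF-H1-/- BMDCs the same genes were at 0.16 (*Stfa1*), 0.20 (*Stfa2*), 0.21 (*Stfa2l1*), 0.59 (*Stfa3*), 0.27 (*Cstb*) and 0.17 (*Cst3*). None was past 1, against 0.807% of all genes, and none had separate intervals, against 2.75%. The drug effect in WT minus that in GEF-H1-/- cells was 0.82 for *Stfa2*, 0.49 for *Stfa2l1*, 0.49 for *Cstb*, 0.43 for *Cst3* and 0.32 for *Stfa1*. It was -0.00 for *Stfa3*, with a sign that differed between settings. With groups scaled to equal sums it was smaller, at 0.58 for *Stfa2*, 0.25 for *Stfa2l1*, 0.26 for *Cstb*, 0.19 for *Cst3* and 0.08 for *Stfa1*, and at -0.24 for *Stfa3*. None of the 6 was past 1 in this difference, against 1.36% of all genes, and the difference was not tested.

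The summed FPKM of the 4 stefin A genes, which depends less on how reads were divided among them but still on reads shared with other cluster genes, was 843 in untreated WT, 1482 in treated WT, 279 in untreated GEF-H1-/- and 325 in treated GEF-H1-/- BMDCs. As log2 changes of the sum this was 0.81 with the drug in WT, 0.22 with the drug in GEF-H1-/- cells, -1.59 between untreated and -2.19 between treated genotypes. The makeup of the sum also differed. *Stfa3* made up 15.8% of it in untreated WT and 4.02% in untreated GEF-H1-/- cells, whereas *Stfa2l1* went from 31.8% to 46.2%. *Stfa2* made up 43.3% in untreated and 49.9% in treated WT cells.

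Other genes of the cluster, most of them known by clone names, included some at the level of the named stefins. Gm5483 was at 390 FPKM in untreated WT, 656 in treated WT, 132 in untreated and 154 in treated GEF-H1-/- BMDCs. BC100530 was at 327, 450, 64.4 and 73.4 FPKM in the same order, and 2010005H15Rik at 52.7, 153, 19.1 and 25.0. In each of these 3 the GEF-H1-/- values were below the WT values with intervals apart. Gm5416 (6.22, 7.46, 3.64 and 1.09 FPKM) and BC117090 (1.61, 3.81, 0.817 and 0.681) were low, and *Csta* was near 0 in every group. The 9 cluster genes that passed the filter, the 4 named stefins among them, had a median of -1.47 between untreated genotypes, against -0.01 for all genes, with 7 past -1, against 0.614% of all genes. BC117090, which passed the filter only through WT groups, is in the median and not among the 7. The 4 named stefins were selected on these values, so nothing is read from this contrast with all genes or from those that follow. Between treated genotypes the other 8 were past -1, against 2.06% of all genes. BC117090 was at -1.52 there, but at -0.63 with a pseudocount of 5 FPKM, and nothing is read from its change. With the drug, 2 of the 9 were past 1 in WT (*Stfa2* and 2010005H15Rik, the latter at 1.52), against 3.66% of all genes. In GEF-H1-/- BMDCs none was past 1. Gm5416 was past -1 at -1.15, against 0.272% of all genes, but its intervals overlapped and it was at -0.51 with a pseudocount of 5 FPKM.

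**Figure D3:**
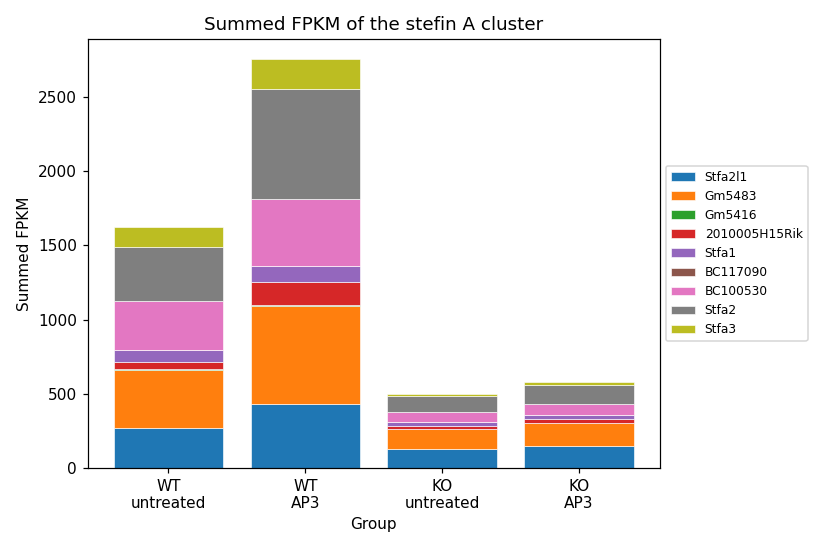
Summed FPKM of the 9 stefin A cluster genes that passed the filter, stacked by gene in their order along the chromosome, in each group. The full height is about 1621 FPKM in untreated WT, 2754 in treated WT, 499 in untreated KO and 579 in treated KO cells.

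Of the 10 type 2 cystatins in the table, *Cst3* and *Cst7* passed the filter. *Cst7* encodes cystatin F, which is carried to lysosomes and inhibits cathepsin C once processed. It was at 66.3 FPKM (47.7 to 77.3) in untreated and 52.6 (37.5 to 64.97) in treated WT BMDCs, and at 88.8 (63.8 to 103) and 81.8 (58.5 to 94.6) in GEF-H1-/- BMDCs, with intervals that overlapped in every comparison. *Cst8*, *Cst9*, *Cst10*, *Cst12*, *Cst13* and *Cstl1* were listed at 0 in every group, and no type 3 cystatin (kininogens, fetuins and histidine-rich glycoprotein) passed the filter. Of 3 other inhibitors of cysteine proteases, *Ctla2a* was past 1 between untreated genotypes (1.14, but 0.82 with a pseudocount of 5 FPKM), against 1.26% of all genes, and was at 0.70 between treated ones. *Cast*, the calpain inhibitor, was at -0.27 between untreated genotypes.

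The cysteine cathepsins and legumain, the targets of these inhibitors, for the most part lay nearer to 0 between genotypes. Of 11 listed genes 10 passed the filter, with a median of 0.12 between untreated genotypes and none past -1, against 0.614% of all genes, and 3 (*Ctsb*, *Ctsk* and *Ctsl*) had intervals apart, higher in GEF-H1-/- cells, against 326 of 11397 genes. *Ctss*, the main protease of invariant chain cleavage in dendritic cells, was at 697 FPKM in untreated WT, 694 in treated WT, 794 in untreated and 755 in treated GEF-H1-/- BMDCs, with overlapping intervals. *Ctsk*, known from bone resorption, was past 1 between untreated genotypes at 1.84, against 1.26% of all genes, and was at 1.89 between treated ones, from 1.62 FPKM in untreated WT to 8.36 in untreated GEF-H1-/- cells. *Ctsl* was at 47.3 FPKM in untreated WT, 72.6 in treated WT, 73.4 in untreated and 82.7 in treated GEF-H1-/- cells. Its changes were 0.61 with the drug in WT and 0.63 between untreated genotypes, with intervals apart in both. Dividing the treated WT bounds by the factor of 1.21 would make the intervals of untreated and treated WT cells overlap. *Ctsb* was at 146 and 221 FPKM in the untreated groups, with intervals apart, and *Ctsc*, the activator of granule serine proteases, at 204 and 130, with overlap. None of the 10 was past 1 or -1 with the drug in either genotype, against 3.66% of all genes higher and 1.28% lower in WT and 0.807% higher and 0.272% lower in GEF-H1-/- cells.

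The summed FPKM of the stefin A cluster, *Cstb*, *Cst3* and *Cst7* was 3.84 times that of the cysteine cathepsins and legumain in untreated WT and 5.38 times in treated WT BMDCs. It was 2.29 times in untreated and 2.52 times in treated GEF-H1-/- BMDCs. *Cst3* made up 72.6% of the inhibitor sum in untreated WT and 80.7% in untreated GEF-H1-/- cells. This ratio compares RNA per length and does not measure inhibition.

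**Figure D4:**
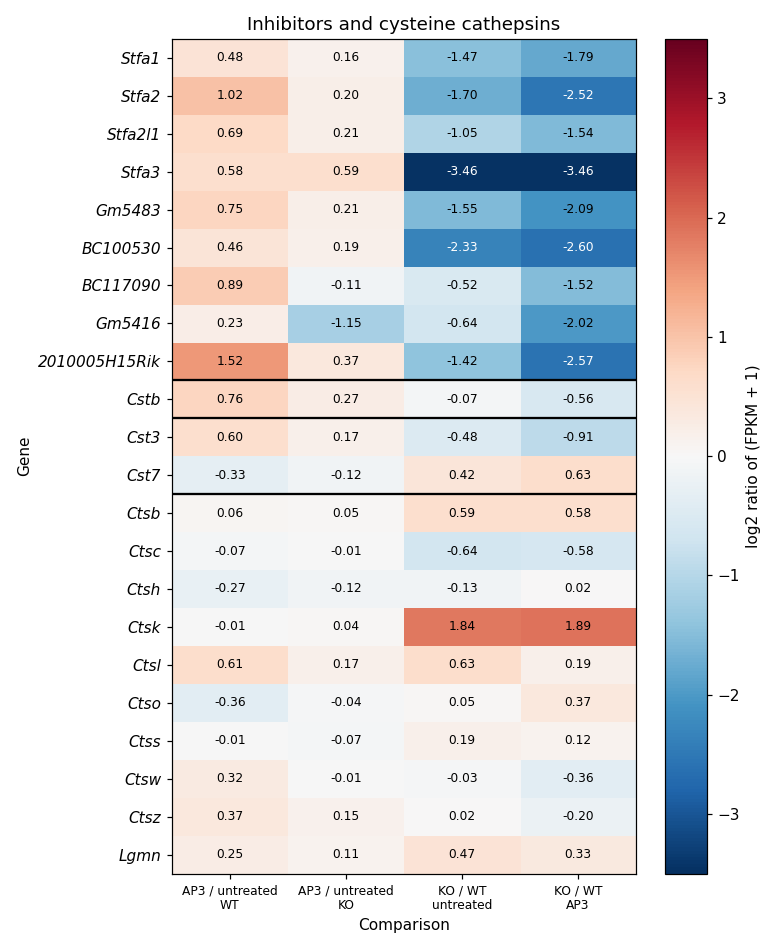
Log2 ratio of FPKM + 1 for stefins, cystatins and cysteine cathepsins (rows) with ansamitocin-P3 (AP3) in each genotype and between genotypes in each treatment (columns). The stefin A genes are below 0 in both genotype columns, down to -3.46 for *Stfa3*. The cathepsins range from -0.64 to 1.84 between untreated genotypes.

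Stefin A transcripts are known from neutrophil precursors, and no sort is named for these cultures, so markers of other cells are given beside them. The neutrophil marker list had 12 of its 13 genes in the table, all past the filter, and its summed FPKM was 33575 in untreated WT, 40047 in treated WT, 22611 in untreated and 23028 in treated GEF-H1-/- BMDCs, with *S100a8* the most abundant in each. Between untreated genotypes 4 of the 12 were past -1, against 0.614% of all genes, 1 was past 1, against 1.26%, and the median was -0.74. In all, 8 were below 0 and 4 above. Of the 12, 6 had lower, separate intervals, against 1.88% of all genes, and 2 had higher ones, against 326 of 11397. Those with lower, separate intervals included *Fcnb* (-2.10), *S100a8* (-0.84) and *Cd177* (-0.83), whereas *Lcn2* (-0.66) overlapped. *Camp*, the cathelicidin, was at 189 FPKM in untreated WT and 14.98 in untreated GEF-H1-/- cells (-3.57), *Ngp* at 1707 and 702 (-1.28) and *Ltf*, lactoferrin, at 399 and 145 (-1.46). *S100a9* was at -0.09, and *Csf3r*, the G-CSF receptor, was higher in GEF-H1-/- cells (1.37), as was *Retnlg* (18.6 and 36.2 FPKM, 0.92), both with intervals apart. *Mmp8* was at 0.38 and *Cxcr2* at 0.10, with overlap. Between treated genotypes 6 of the 12 were past -1, against 2.06% of all genes, and 1 was past 1, against 228 of 11397. The median of the list was -0.94 there, with 10 genes below 0 and 2 above. Fewer cells of a type and less RNA per cell cannot be told apart in these bulk values, and the part of neutrophil RNA in the stefin A values was not tested.

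Markers of other cells moved in both directions between the untreated genotypes. The 4 granulocyte progenitor genes had a sum of 107 FPKM in WT and 206 in GEF-H1-/- cells. *Mpo* (1.23) and *Ctsg* (0.81) were higher in GEF-H1-/- cells with intervals apart. *Elane* (1.11) and *Prtn3* (0.53) share a single span in the table (chromosome 10, 79697305 to 80369637) and have intervals from 0 that overlap, so nothing is read from their changes or from their part of the sum. The 11 dendritic cell markers had a median of -0.26, with none past either threshold. In this comparison 0.614% of all genes were past -1 and 1.26% past 1. Of 7 eosinophil genes 4 were past -1, whereas *Siglec5* was at 0.58 with higher, separate intervals and *Ear2* at -0.10 with overlap. *Ccr3* passed the filter only through GEF-H1-/- groups, so nothing is read from its change. The list sum was 2302 FPKM in WT and 1232 in GEF-H1-/- cells, and *Prg2* and *Ear2* were the most abundant. The macrophage list (9 genes, sum 270 and 406 FPKM, led by *Cd68*) had 3 genes past 1, and the mast cell and basophil list (5 of 7 genes past the filter, sum 189 and 369 FPKM, led by *Prss34*) had 2. The sums of the T cell list were 12.3 and 8.46 FPKM, those of the B cell list 6.43 and 4.13, those of the NK cell list 0.423 and 0.681, and those of the erythroid list 6.11 and 3.47.

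**Figure D5:**
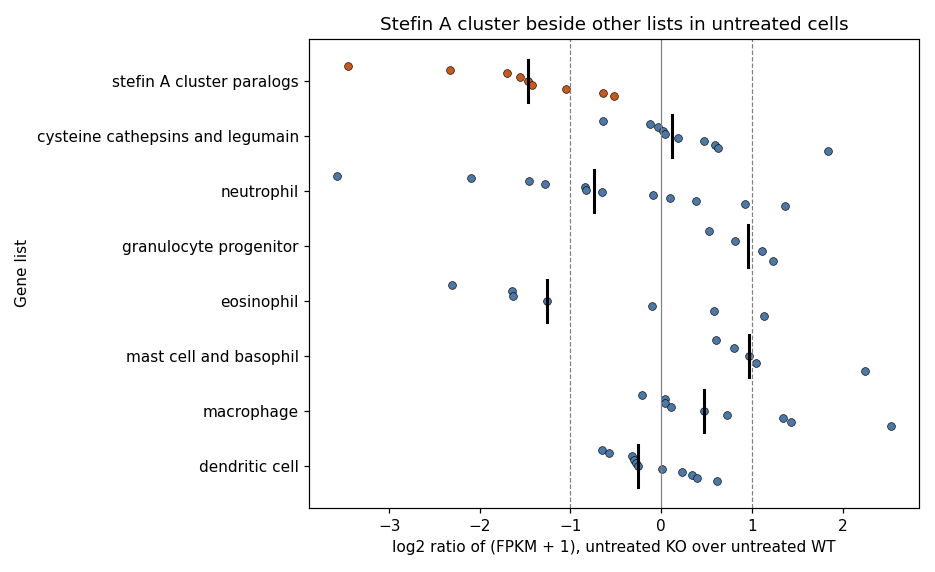
Log2 ratio of FPKM + 1 between untreated KO and untreated WT BMDCs for each gene (point) of the stefin A cluster and of other lists, with the list median (bar) and the threshold (dashed lines). The medians are -1.47 for the stefin A cluster and -0.74 for neutrophil genes. The cluster includes the stefin A genes that were selected on these values. The eosinophil points and median include *Ccr3*, which passed the filter only through KO groups.

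The genes whose pattern over the 4 groups was nearest to each of the 6 were found by the Euclidean distance between centred log2(FPKM + 1) values among 8894 genes with at least 5 FPKM in a group. Nearest to *Stfa1* were *Penk*, *Htr7* and *Ngp* (distances 0.17, 0.21 and 0.25), and nearest to *Stfa2l1* were *G0s2*, *Htr7* and *Gzmb* (0.15, 0.18 and 0.19). Nearest to *Stfa2* were *Hbb-b1* (0.33) and the cluster genes Gm5483 (0.35) and 2010005H15Rik (0.39). For *Stfa3* the nearest gene was *Camp* (0.40), followed by the deleted *Arhgef2* (0.71) and *Mir1186* (0.88). *Cstb* was nearest to *Clic1*, *Gna13* and *Dnase1l1* (0.01, 0.02 and 0.02), and *Cst3* to Gm7367, *Rap1gap* and E330009J07Rik (0.03, 0.04 and 0.09). Of these, *Penk*, *Hbb-b1*, *Arhgef2* and *Mir1186* reached 5 FPKM only in WT groups, and *Rap1gap* and E330009J07Rik only in treated WT cells. These 6 genes passed the filter only through groups in which they were high, so nothing is read from their distances. With 4 values per gene, a short distance says only that the group values run alike.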

How the data were processed

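The authors sequenced 8 libraries and deposited FPKM computed with Cuffdiff (1.05 in the submitters' processing notes), with 95% interval bounds and a status, as 1 value per gene and group. The aligner behind this table is not given in the sources used here. WT columns name no genotype and were assigned by elimination. No other per-sample column was present (0 columns). Of 23356 genes, 107 without status OK were left out, and 11397 reached 1 FPKM in a group. Values were computed in Python 3.11.15 with pandas 2.3.3 and numpy 2.4.6, tested on simulated data, as log2 ratios with a pseudocount of 1 FPKM. The members and lists were chosen with earlier results of these data known. Named genes were the 6 members, genes of the inhibitor and protease lists with at least 1 FPKM, the 3 nearest genes to each member, neutrophil, granulocyte progenitor and dendritic cell markers, and *Arhgef2*; others were named after their values were seen. A gene of the serine protease inhibitor list is not reported here. List symbols were matched through RefSeq synonyms. An NF-kappaB pattern was also searched in the promoters and is not reported here. Among genes under 0.3 FPKM, the commonest log2 ratio to untreated WT was 0.20, 0.19 and 0.21 in treated WT, untreated and treated GEF-H1-/- BMDCs, which does not give library totals. Alternatives were other pseudocounts, filters, thresholds and scalings, and interval midpoints.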

Additional observations from a re-analysis of the deposited data

How the results depend on the processing

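No paired analysis was possible because the table holds 1 pooled value per group, and for the same reason no replicate could be left out. The log2 changes of the summed stefin A genes kept their direction in all 5 comparisons under every pseudocount, scaling and choice of genes tried, and under interval midpoints, an alternative chosen after seeing the data: they ranged from 0.53 to 0.86 (drug in WT), 0.18 to 0.24 (drug in GEF-H1-/-), -1.93 to -1.41 (untreated genotypes), -2.57 to -1.91 (treated genotypes) and 0.36 to 0.65 (difference of the drug effects). No called change of the 6 genes or of 106 other named genes reversed. Of 2650 values of those other genes, 69 moved by more than their interval. The summed FPKM itself moved by more than its interval in 12 cases in which cluster genes were added or a stefin was left out, with levels from 150 to 2754 FPKM.

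Member counts moved as follows. With the drug in WT, 1 became 0 with groups scaled to equal sums, 5 at a threshold of 0.5 and 0 at 1.5. With the drug in GEF-H1-/-, 0 became 1 at 0.5. Between untreated genotypes, 4 became 2 at 1.5 and 3 with interval midpoints. Between treated genotypes, 4 became 6 at 0.5. For the difference of the drug effects, 0 became 1 at 0.5.

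Counts over all genes moved too. Higher with the drug in WT, 417 became 271 (pseudocount 5), 259 (equal sums), 1416 (threshold 0.5) and 167 (1.5). Higher in GEF-H1-/-, 92 became 150 (pseudocount 0.1), 59 (5), 439 (0.5) and 46 (1.5). Lower between untreated genotypes, 70 became 133, 39, 340 and 34 in that order. Lower between treated genotypes, 235 became 365 and 127 (pseudocounts), 124 (equal sums), 1111 and 77 (thresholds). In the difference, 155 became 91 (pseudocount 5), 94 (equal sums), 767 and 66 (thresholds). Among genes past the threshold in either direction, equal sums moved the share of higher ones from 74.1% to 38.9% with the drug in WT, from 49.2% to 76.9% between treated genotypes and from 71.8% to 45.4% in the difference, and the median of all genes to -0.24, 0.20 and -0.19. Each of these settings acts on the counts by construction. The interval rule could not be applied to the difference. Depth limits genes with low FPKM most, and the depth reached is not given in the sources used here.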

Other observations

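Of 17 listed genes of serine protease inhibitors 16 passed the filter, and some are given here with no count. *Serpinb9*, an inhibitor of granzyme B, was at 35.6 FPKM in untreated and 86.2 in treated WT cells and at 32.4 and 76.1 in GEF-H1-/- cells, log2 changes with ansamitocin-P3 of 1.25 and 1.21. *Serpinb9b* was at 1.26 and 1.29. With groups scaled to equal sums, both genes would be just under 1 in WT and still over 1 in GEF-H1-/- cells. *Serpinb2*, an inhibitor of urokinase, was at 1.61 in WT and 0.32 in GEF-H1-/- cells with the drug. *Serpina3g* was at -1.21 and -0.46.

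Between untreated genotypes *Wfdc17* was at 22.3 FPKM in WT and 114 in GEF-H1-/- cells (2.30, and 2.13 between treated genotypes) and *Serpinb2* at 3.04 and 7.44 FPKM (1.06, but 0.63 with a pseudocount of 5 FPKM, and -0.23 between treated genotypes). *Serpinb6b* was at -0.80 between untreated and -1.10 between treated genotypes, and 1100001G20Rik at -0.86 and -1.01. *Serping1*, the C1 inhibitor, passed the filter only through GEF-H1-/- groups (0.048 FPKM in untreated WT and 1.97 in untreated GEF-H1-/- cells), so no change is given for it.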
